A study of Mus musculus with 6 samples.

Results

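The 7 genes described here, Cdkn1a, Cdkn1b, Cdkn1c, Cdkn2a, Cdkn2b, Cdkn2c and Cdkn2d, encode the inhibitors of cyclin-dependent kinases, and they were taken by symbol from the 39179 genes listed for each sample. Their poly(A) RNA was measured in 6 mouse liver tumour samples, 3 driven by Myc with NrasG12V and 3 driven by Myc with Akt1. Transposable elements carrying the oncogenes had been brought into hepatocytes of C57BL/6 wildtype mice by hydrodynamic injection, a rapid injection of a large volume, usually into the tail vein. Myc was thus shared by both groups, Nras with the activating G12V change marked one and Akt1 the other, and no sample without oncogenes was part of the comparison. The promoters of the elements, the age of the mice and the time of sampling are not given in the sources used here. Nothing in the labels ties a sample to an animal, and p-values here measure only the spread between these samples, which may be technical.

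Progress from G1 into S phase depends on cyclin-dependent kinases, and the inhibitors fall into a pair of families. Proteins of the Cip/Kip family (p21 from Cdkn1a, p27 from Cdkn1b and p57 from Cdkn1c) bind complexes of cyclin and kinase, above all those of CDK2. Proteins of the INK4 family (p16 from Cdkn2a, p15 from Cdkn2b, p18 from Cdkn2c and p19 from Cdkn2d) bind CDK4 and CDK6 and keep them from D-type cyclins, which leaves RB in its growth-suppressing state. Cdkn2a also encodes ARF, read in another frame from its own first exon, which binds MDM2 and so stabilises p53. RAS signalling is a classic inducer of the Cdkn2a and Cdkn2b locus in cultured cells, and in human liver cancer the locus is recurrently inactivated.

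Promoters of the 3 INK4 genes that passed the test between the tumour groups are shown first, with both starts of Cdkn2a and the upstream one of 2 Cdkn2c starts. Each line gives the 250 bases before a RefSeq transcript start on the minus strand of chromosome 4 (build GRCm38.p6), written 5′ to 3′ in the direction of transcription, with motif matches in capitals.
Cdkn2a, Arf start, chr4:89294620-89294869: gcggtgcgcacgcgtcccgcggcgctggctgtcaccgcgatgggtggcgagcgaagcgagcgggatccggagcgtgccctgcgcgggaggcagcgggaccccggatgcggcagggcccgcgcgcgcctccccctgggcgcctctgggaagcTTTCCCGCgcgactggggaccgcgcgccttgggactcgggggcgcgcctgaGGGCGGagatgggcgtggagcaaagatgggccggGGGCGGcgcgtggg
Cdkn2a, Ink4a start, chr4:89282193-89282442: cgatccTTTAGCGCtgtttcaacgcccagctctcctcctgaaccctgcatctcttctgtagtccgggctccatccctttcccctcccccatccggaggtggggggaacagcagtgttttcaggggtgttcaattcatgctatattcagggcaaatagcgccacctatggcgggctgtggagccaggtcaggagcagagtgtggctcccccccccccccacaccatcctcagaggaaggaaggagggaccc
Cdkn2b, chr4:89311033-89311282: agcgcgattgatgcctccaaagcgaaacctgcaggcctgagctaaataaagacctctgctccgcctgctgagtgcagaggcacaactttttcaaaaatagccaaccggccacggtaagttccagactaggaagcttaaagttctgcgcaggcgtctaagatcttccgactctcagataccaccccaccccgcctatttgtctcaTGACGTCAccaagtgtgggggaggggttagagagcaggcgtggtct
Cdkn2c, upstream start, chr4:109666757-109667006: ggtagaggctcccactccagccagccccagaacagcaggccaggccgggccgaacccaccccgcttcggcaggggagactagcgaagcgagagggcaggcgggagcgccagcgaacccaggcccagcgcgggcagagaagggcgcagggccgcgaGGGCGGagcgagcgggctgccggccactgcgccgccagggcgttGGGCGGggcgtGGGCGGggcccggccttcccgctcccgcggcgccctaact
Capitals mark the E2F motif TTTNNCGC at both Cdkn2a starts, the cAMP response element TGACGTCA in the Cdkn2b window, and GC boxes (GGGCGG) in the Arf window and the upstream Cdkn2c window. Both strands were searched, and no marked matches overlap. The E2F motif lay at positions -99 to -92 from the Arf start and at -244 to -237 from the Ink4a start, and it occurred in 4.28% of 32841 RefSeq promoter windows of the same length. The response element of Cdkn2b lay at -46 to -39 and occurred in 1.55% of windows, whereas GC boxes, 3 of them in the upstream Cdkn2c window and none in the other, occurred in 32.7%. RefSeq windows were matched for 6 of the 7 genes, 9 windows in all, and the E2F and response element letters were found in no window of Cdkn1a, Cdkn1b, Cdkn2c or Cdkn2d. AP-1 (TGANTCA, 6.75% of windows), ETS (CCGGAA, 12.0%), E-box (CACGTG, 6.02%), FOXO (GTAAACA, 3.17%) and TATA box (TATAAA, 12.4%) letters were found in none of the 9 windows. The share of G and C was 78.4% in the Arf window, 77.2% in the upstream and 42.8% in the downstream Cdkn2c window, and 53.6% in that of Cdkn2b, beside a median of 52.4% over all windows.

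The libraries held 17881282 to 27865094 reads assigned to genes, so that 1 read was worth 0.0359 to 0.0559 CPM (counts scaled to a fixed library total). The oncogene labels were met in all 6 libraries: Nras had 171 ± 25.0 CPM in the Myc/NrasG12V group and 56.0 ± 4.51 in the other (SD, n = 3), Akt1 had 65.1 ± 19.1 and 280 ± 33.8 CPM, and Myc had 153 ± 29.4 and 154 ± 55.0. All 10 hepatocyte markers had reads in every library, and their sum was 114475 to 150377 CPM against 41487 to 56601 CPM, with 2 called higher in Myc/NrasG12V and 1 lower. Most of that sum was Alb, at 110858 ± 17663 against 33563 ± 4417 CPM (SD, n = 3). The Alb values of the groups did not overlap, but the gene was not called (log2 difference 1.72, SE 0.95, limma adjusted p = 0.184). That SE draws on a variance trend over all tested genes and not on the spread of Alb alone. Differences are log2 differences, Myc/NrasG12V minus Myc/Akt1, on the log2(CPM + 1) scale, which understates changes of low genes, and a gene was called at an adjusted p under 0.05 (limma, Benjamini-Hochberg over 14365 tested genes). By that rule 39.5% of tested genes were called. Those higher in Myc/NrasG12V made up 10.0%, and those lower there, hence higher in Myc/Akt1, 29.5%. The median of all tested genes stood at -0.26. With trimmed-mean (TMM) scaling it stood at 0.0048 and the calls split into 2331 higher and 2567 lower, against 1437 and 4240 on the deposited scale, so small differences below are read with that shift.

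The inhibitor genes that passed the test went in different directions. Cdkn2a and Cdkn2b were higher in Myc/NrasG12V, while each Myc/Akt1 library held only 3 to 15 reads of either gene, and Cdkn2c was higher in Myc/Akt1. Cdkn1a, Cdkn1b, Cdkn1c and Cdkn2d did not pass the test. With 2 of 7 genes called for Myc/NrasG12V and 1 for Myc/Akt1, the counts stand beside the 10.0% and 29.5% of all tested genes. The values of the groups did not overlap for 4 of the 7 genes, as for 52.7% of all tested genes. The median difference of the 7 genes was -0.13, beside -0.26 over all. All 7 passed the filter on low values, Cdkn2b only through the Myc/NrasG12V libraries and Cdkn2a through these and 1 Myc/Akt1 library. These counts are a description, because a gene that passes through its high group had to differ.

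**Figure D1:**
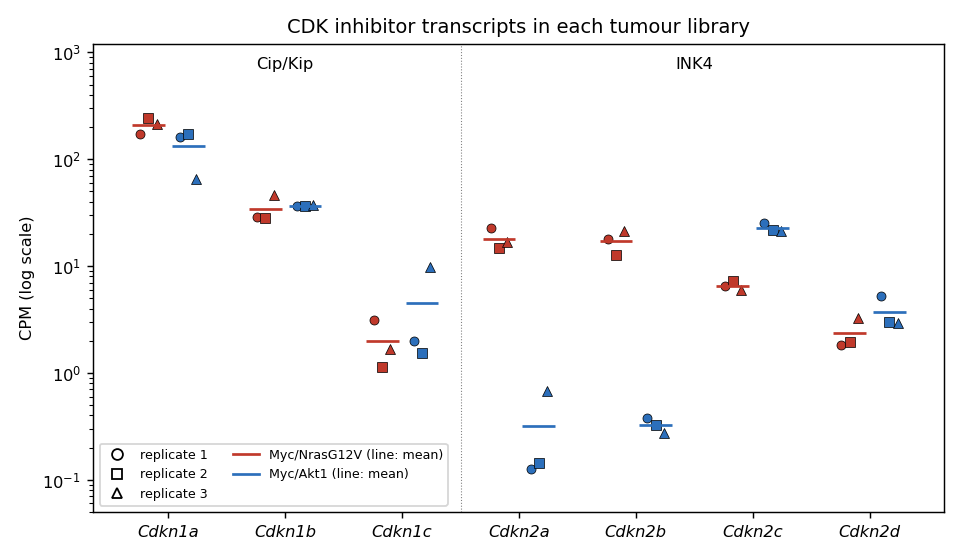
CPM of each CDK inhibitor gene (log scale) in the 3 Myc/NrasG12V libraries (red) and the 3 Myc/Akt1 libraries (blue), with symbols for the replicate number and lines for the group means. The Cdkn2a and Cdkn2b points of the groups lie far apart, Cdkn2c is higher in Myc/Akt1, and Cdkn1b and Cdkn1c overlap.

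Cdkn2a (ENSMUSG00000044303, chromosome 4, 89274471 to 89294653, minus strand) encodes p16 and ARF. It stood at 22.7, 14.8 and 16.9 CPM in Myc/NrasG12V replicates 1 to 3 and at 0.127, 0.144 and 0.682 CPM in Myc/Akt1 replicates 1 to 3. In reads this is 475, 322 and 302 against 3, 4 and 15. All 3 Myc/NrasG12V libraries were far above all 3 Myc/Akt1 libraries, and among the latter replicate 3 was the highest. The exact 95% Poisson intervals, which cover counting error only, were 0.0262 to 0.372, 0.0391 to 0.368 and 0.382 to 1.12 CPM in the Myc/Akt1 libraries. The interval of replicate 3 thus lay above those of the other Myc/Akt1 libraries. The means were 18.1 ± 4.09 and 0.317 ± 0.315 CPM (SD, n = 3), a ratio of 57.1, and the log2 difference was 3.86 (SE 0.26, 95% interval 3.26 to 4.46, limma adjusted p = 5.3e-05). Without Myc/Akt1 replicate 3 the ratio of means was 134, and without any other single library it was 43.9 to 62.3.

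The p16 and ARF transcripts of Cdkn2a cannot be separated in these gene-level values. In GENCODE M21 (GRCm38), Cdkn2a-201 begins with the Ink4a exon, 207 bases at 89281986 to 89282192, and Cdkn2a-202 with the Arf exon, 320 bases at 89294334 to 89294653. Both run on into a second exon of 341 bases at 89276645 to 89276985. Of the 1172 exonic bases, 575 (49.1%) belonged to both transcripts. No run of 75 bases, the number of sequencing cycles, was shared between the Cdkn2a transcripts and another annotated gene, and the same held for Cdkn1b, Cdkn2b, Cdkn2c and Cdkn2d.

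Cdkn2b (ENSMUSG00000073802, chromosome 4, 89306299 to 89311039, minus strand), which encodes p15 and is a known target of TGF-beta signalling, lies 11.6 kb upstream of Cdkn2a. It was at 18.0, 12.8 and 21.3 CPM in Myc/NrasG12V and at 0.382, 0.323 and 0.273 CPM in Myc/Akt1 replicates 1 to 3, from 376, 279 and 381 reads against 9, 9 and 6. The groups were far apart, and the Myc/Akt1 libraries were close to each other. The means were 17.4 ± 4.28 and 0.326 ± 0.0546 CPM (SD, n = 3), a ratio of 53.3 that ranged from 47.2 to 60.3 without any single library. The log2 difference was 3.76 (SE 0.24, 95% interval 3.21 to 4.32, limma adjusted p = 3.8e-05).

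No difference between the neighbouring genes in how far they were apart between the groups was detected, in a comparison that their low Myc/Akt1 values limit. The log2 ratio of Cdkn2a to Cdkn2b, each with 1 CPM added, was 0.32, 0.19 and -0.32 in Myc/NrasG12V and -0.29, -0.21 and 0.40 in Myc/Akt1. These values overlap, and Myc/Akt1 replicate 3, with its 15 Cdkn2a reads, has the highest ratio. The group means of 0.07 ± 0.34 and -0.03 ± 0.38 (SD, n = 3) differed by 0.10 (exact two-sided permutation test, p = 1.0, where 3 against 3 cannot go below 0.1). Read counts of 3 to 15 per Myc/Akt1 library limit this comparison. The 1 CPM added is also larger than every Myc/Akt1 value of either gene, at 0.127 to 0.682 CPM for Cdkn2a and 0.273 to 0.382 CPM for Cdkn2b. It pulls those ratios towards equality, so the test cannot show whether the genes changed by different amounts.

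Cdkn2c (ENSMUSG00000028551, chromosome 4, 109660876 to 109667189, minus strand) encodes p18, an INK4 protein produced in many dividing cells. It ran the other way, at 6.54, 7.21 and 5.98 CPM in Myc/NrasG12V and 25.5, 21.9 and 21.3 CPM in Myc/Akt1. No value of one group reached the other, and the spread within each was small. The means of 6.58 ± 0.613 and 22.9 ± 2.29 CPM (SD, n = 3) gave a 3.48-fold higher level in Myc/Akt1, with a log2 difference of -1.65 (SE 0.20, 95% interval -2.11 to -1.20, limma adjusted p = 4.8e-04). The difference was -1.36 with TMM scaling (limma adjusted p = 0.0017).

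Cdkn2d (ENSMUSG00000096472, chromosome 9, 21288410 to 21291407, minus strand) encodes the INK4 protein p19, which is distinct from ARF. Its level was 1.81, 1.93 and 3.30 CPM in Myc/NrasG12V and 5.30, 3.01 and 2.91 CPM in Myc/Akt1. Myc/NrasG12V replicate 3 reached into the range of the other group. The means were 2.35 ± 0.826 and 3.74 ± 1.35 CPM (SD, n = 3). The log2 difference of -0.49 (SE 0.28, 95% interval -1.13 to 0.14) did not pass the test (limma adjusted p = 0.191).

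The make-up of the INK4 transcripts took separate values in the groups. Per kb of exon, Cdkn2a and Cdkn2b together made up 90.0%, 84.8% and 87.3% of the summed INK4 level in Myc/NrasG12V replicates 1 to 3, and 2.89%, 3.41% and 7.38% in Myc/Akt1. Cdkn2c made up 7.92% ± 2.17 and 75.0% ± 3.26 (SD, n = 3), and Cdkn2d 4.71% ± 1.47 and 20.5% ± 4.34. The INK4 level of Myc/NrasG12V tumours was mostly that of the Cdkn2a and Cdkn2b locus, and that of Myc/Akt1 tumours mostly that of Cdkn2c.

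**Figure D2:**
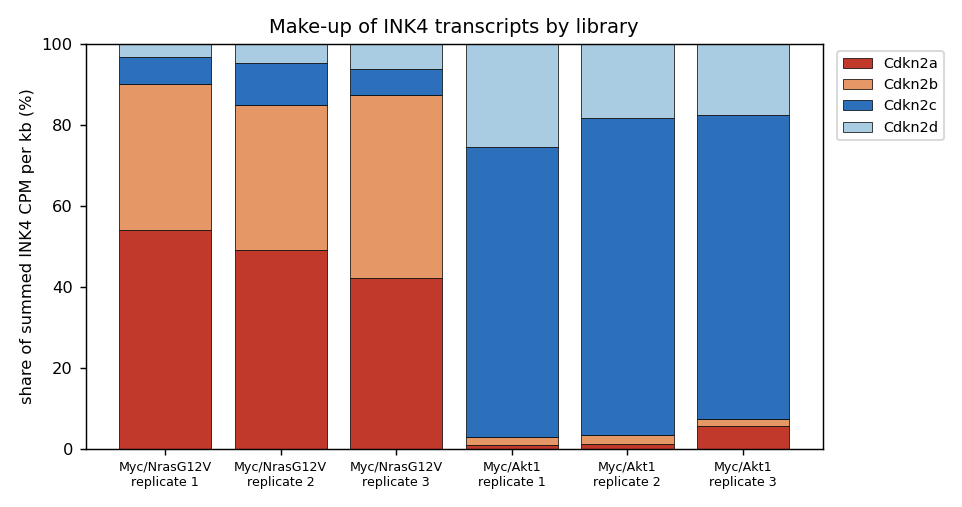
Share (%) of the summed INK4 level, in CPM per kb of exon, that each of the 4 INK4 genes made up in each library. Cdkn2a and Cdkn2b fill 84.8% to 90.0% of the bar in Myc/NrasG12V and 2.89% to 7.38% in Myc/Akt1.

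Among the Cip/Kip genes, Cdkn1a (ENSMUSG00000023067, chromosome 17, 29090976 to 29100727, plus strand), the best-known transcriptional target of p53, had the highest level. It was at 171, 242 and 214 CPM in Myc/NrasG12V and 160, 171 and 65.7 CPM in Myc/Akt1. The groups only just failed to overlap, at 171.5 against 171.3 CPM, and Myc/Akt1 replicate 3 was far below the other libraries. The means were 209 ± 35.5 and 132 ± 58.0 CPM (SD, n = 3), and the log2 difference of 0.76 (SE 0.35, 95% interval -0.03 to 1.55) did not pass the test (limma adjusted p = 0.113). Its call depended on the scaling and the tool. With TMM scaling the difference was 1.08 (limma adjusted p = 0.0462), in edgeR 0.98 (adjusted p = 0.0603) and in DESeq2 0.99 (adjusted p = 0.0245). Without Myc/Akt1 replicate 3 it was 0.32 (limma adjusted p = 0.237).

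Cdkn1b (ENSMUSG00000003031, chromosome 6, 134920401 to 134925513, plus strand) encodes p27, whose amount is set largely by degradation of the protein. It was at 28.7, 28.0 and 46.2 CPM in Myc/NrasG12V and at 36.8, 36.2 and 37.1 CPM in Myc/Akt1. The Myc/Akt1 libraries were nearly equal and lay inside the range of the other group. The means were 34.3 ± 10.4 and 36.7 ± 0.448 CPM (SD, n = 3). The log2 difference was -0.13 (SE 0.22, 95% interval -0.63 to 0.36, limma adjusted p = 0.659), and its sign turned with the scaling, to 0.17 with TMM.

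Cdkn1c (ENSMUSG00000037664, chromosome 7, 143458339 to 143461050, minus strand) encodes p57 and is an imprinted gene expressed from the maternal allele. It was at 3.15, 1.15 and 1.68 CPM in Myc/NrasG12V and 1.99, 1.54 and 9.86 CPM in Myc/Akt1. A single library, Myc/Akt1 replicate 3, stood apart, and the other 5 overlapped. The means were 1.99 ± 1.04 and 4.47 ± 4.68 CPM (SD, n = 3). The log2 difference of -0.60 (SE 0.53, 95% interval -1.79 to 0.60) did not pass the test (limma adjusted p = 0.399), and without that library it was 0.062. In GENCODE M21, Cdkn1a and Cdkn1c overlap antisense genes, and 250 of 3547 and 479 of 2171 of their runs of 75 bases were shared with another gene. The strand setting of the counting is not given in the sources used here.

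Myc/Akt1 replicate 3 was the library with the lowest Cdkn1a, the highest Cdkn1c and, within its group, the highest Cdkn2a value. Cdkn2b, Cdkn2c and Cdkn1b did not set it apart.

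Levels were compared between the genes as CPM per kb of exon. In Myc/NrasG12V the order was Cdkn1a at 58.9 ± 10.0, Cdkn2a at 15.5 ± 3.49, Cdkn2b at 12.5 ± 3.08, Cdkn1b at 7.53 ± 2.28, Cdkn2c at 2.45 ± 0.228, Cdkn2d at 1.49 ± 0.525 and Cdkn1c at 0.977 ± 0.509 CPM per kb (SD, n = 3). The ranges of Cdkn2a and Cdkn2b, of Cdkn2b and Cdkn1b, and of Cdkn2d and Cdkn1c overlapped, so these neighbours did not differ beyond their spread. In Myc/Akt1 the order was Cdkn1a at 37.2 ± 16.3, Cdkn2c at 8.52 ± 0.853, Cdkn1b at 8.06 ± 0.0984, Cdkn2d at 2.38 ± 0.860, Cdkn1c at 2.19 ± 2.29, Cdkn2a at 0.271 ± 0.269 and Cdkn2b at 0.234 ± 0.0393 CPM per kb (SD, n = 3). There the ranges of Cdkn2c and Cdkn1b, of Cdkn2d and Cdkn1c, and of Cdkn2a and Cdkn2b overlapped. Cdkn1a led in both groups, while Cdkn2a and Cdkn2b went from next in order to last.

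The balance between the families overlapped between the groups on the deposited scale. Summed INK4 CPM amounted to 24.1%, 13.6% and 18.1% of summed Cip/Kip CPM in Myc/NrasG12V replicates 1 to 3 and to 15.7%, 12.1% and 22.3% in Myc/Akt1. The log2 ratios of -2.47 ± 0.42 and -2.63 ± 0.44 (SD, n = 3) differed by 0.16 (exact two-sided permutation test, p = 0.7). On the per kb scale the difference was 0.94 (exact two-sided permutation test, p = 0.1, the smallest value that 3 against 3 can give). The groups only just failed to overlap there, at -1.54 in Myc/NrasG12V replicate 2 against -1.58 in Myc/Akt1 replicate 3.

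**Figure D3:**
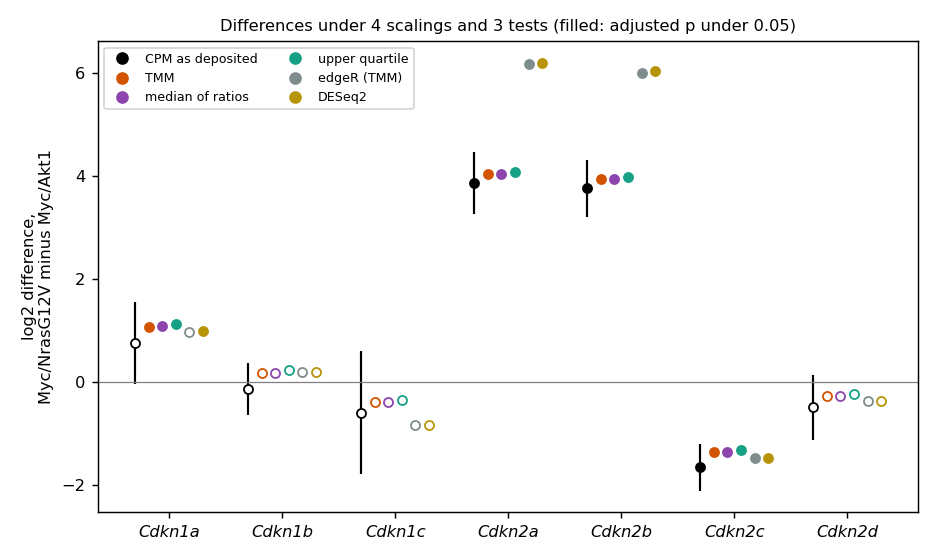
Log2 difference (Myc/NrasG12V minus Myc/Akt1) of each CDK inhibitor gene under 4 scalings tested with limma and in edgeR and DESeq2. Filled points have an adjusted p under 0.05 and black bars are 95% intervals on the deposited scale. Cdkn2a, Cdkn2b and Cdkn2c are filled throughout, Cdkn1a is filled in 4 of the 6 fits, and Cdkn1b lies below 0 only on the deposited scale.

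The plot of the 6 fits separates genes whose direction held from those whose direction did not. Cdkn2a, Cdkn2b and Cdkn2c kept their calls in all 15 alternative fits, with log2 differences of 3.70 to 6.20, 3.61 to 6.04 and -1.78 to -1.31. The values above 6 come from the count models, which do not add 1 CPM. Cdkn1c and Cdkn2d were called in none of these fits.

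Marker genes of other cell types also differed between the groups. Their counts stand beside the 10.0% of all tested genes called higher in Myc/NrasG12V and the 29.5% called lower. Summed erythroid markers were at 303, 1073 and 1872 CPM in Myc/NrasG12V and at 58.3, 50.9 and 105 CPM in Myc/Akt1, with 7 of 9 tested markers called higher in Myc/NrasG12V. Summed neutrophil markers were at 31.7, 72.4 and 203 CPM against 3.68 to 4.71 CPM, again with 7 of 9 called higher. The neutrophil genes Ly6g, Mpo, Ngp and Camp and the erythroid gene Slc4a1 each had no read in 1 or 2 of the Myc/Akt1 libraries. Summed cholangiocyte markers were at 438 to 980 CPM against 143 to 275 CPM (2 of 7 called higher). Most of that sum was Spp1, at 626 ± 287 against 205 ± 78.0 CPM (SD, n = 3). Summed macrophage markers were at 252 to 407 CPM against 158 to 210 CPM (4 of 10 called higher). T and NK cell markers, at 13.3 to 36.0 against 7.08 to 10.3 CPM, had 4 of 9 called higher and 1 lower. Endothelial markers overlapped in their sums (181 to 309 against 206 to 248 CPM), with 4 of 10 called higher and 1 lower. Sums of stellate and fibroblast markers (523 to 601 against 404 to 664 CPM, 1 of 10 called higher) and of B cell markers (3.97 to 12.0 against 5.23 to 8.11 CPM) also overlapped. The part of these cells in the Cdkn2a and Cdkn2b difference was not tested, and in bulk samples fewer cells of a type and less RNA per cell cannot be told apart.

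Genes within 100 kb of each locus were read in the same fit. Within 100 kb of Cdkn2a or Cdkn2b the other tested gene was Mtap, a purine salvage enzyme often deleted together with the locus in human tumours. Mtap was at 56.1 ± 3.26 CPM in Myc/NrasG12V and 98.7 ± 17.8 CPM in Myc/Akt1 (SD, n = 3, log2 difference -0.79, limma adjusted p = 0.0087), opposite in sign to Cdkn2a at a distance of 93.4 kb, and with TMM scaling the call was lost (-0.48, limma adjusted p = 0.0601). The flanking non-coding genes Gm12606 and Gm12609 were below the filter, with 5 reads against 0 and 5 against 2 over 3 libraries each.

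Next to Cdkn1b, whose own level was not called, the long non-coding RNA gene Lockd, 3.58 kb downstream, was lower in Myc/NrasG12V. It was at 0.478, 0.459 and 0.447 CPM in Myc/NrasG12V and at 6.07, 3.95 and 6.68 CPM in Myc/Akt1, from 28 and 400 reads in all. The log2 difference was -2.14 (SE 0.23, limma adjusted p = 2.8e-04), and -1.96 with TMM scaling. The other tested neighbours of Cdkn1b, namely Gpr19, Apold1, Crebl2 and Ddx47, were not called. Whether Cdkn1b and Lockd differed in their differences was not tested.

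Near Cdkn1a, the non-coding gene Trp53cor1, known as lincRNA-p21, was at 1.18 ± 0.911 and 1.32 ± 0.361 CPM (SD, n = 3) and was not called, nor were Rab44 and Stk38. Srsf3, a splicing factor gene 47.6 kb away, was at 64.2 ± 9.20 and 132 ± 9.40 CPM (log2 difference -1.03, limma adjusted p = 0.0019). In the imprinted region of Cdkn1c none of the 5 tested neighbours Slc22a18, Kcnq1, Phlda2, Nap1l4 and Cars was called. Both tested neighbours of Cdkn2c were higher in Myc/Akt1, as Cdkn2c was. These were the non-coding gene 9630013D21Rik, at 6.03 ± 1.41 against 16.3 ± 7.22 CPM (limma adjusted p = 0.0156, a call lost with upper-quartile scaling and without Myc/NrasG12V replicate 1 or 2), and Faf1, at 33.9 ± 2.81 against 56.6 ± 4.06 CPM (limma adjusted p = 0.0078, and 0.0862 with TMM scaling).

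**Figure D4:**
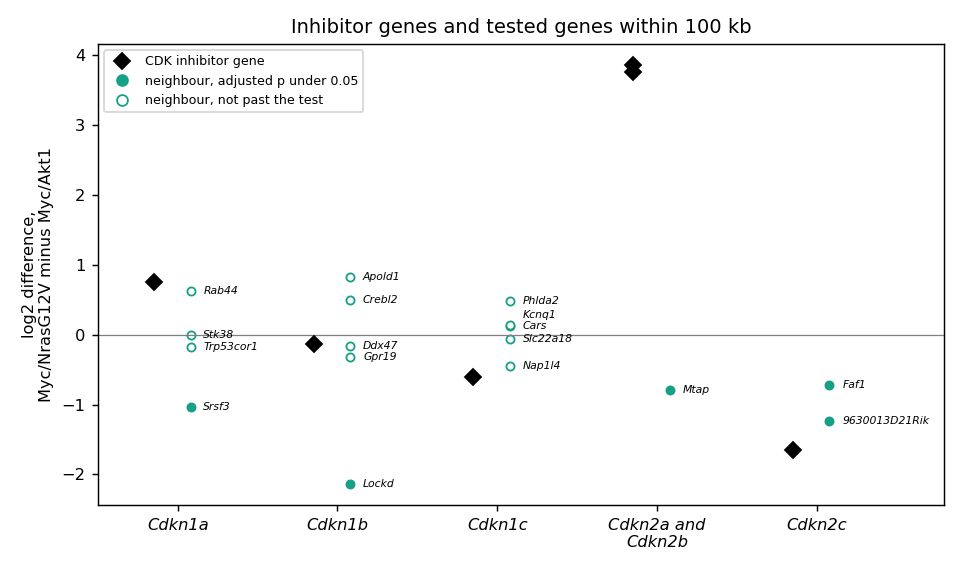
Log2 difference (Myc/NrasG12V minus Myc/Akt1) of the CDK inhibitor genes other than Cdkn2d (black diamonds) and of tested genes within 100 kb of them (green, filled where the adjusted p was under 0.05). The Cdkn2a and Cdkn2b diamonds stand at 3.86 and 3.76 over Mtap at -0.79, and Lockd stands at -2.14 beside Cdkn1b at -0.13. On TMM scaling Cdkn1b stands at 0.17.

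Genes of the surrounding pathway were read from lists chosen with earlier results in view, and their medians stand beside -0.26 for all tested genes. Their counts stand beside the 10.0% of all tested genes called for Myc/NrasG12V and the 29.5% called for Myc/Akt1. Among 15 tested cyclin and kinase genes, the Myc/NrasG12V tumours were higher in 2 and the Myc/Akt1 tumours in 7 (median -0.39). The 2 were Ccnd1, at 35.1 ± 13.3 against 14.5 ± 3.72 CPM, and Ccnd3, at 48.4 ± 14.6 against 20.8 ± 2.44 CPM (SD, n = 3), D-type cyclins that compete with INK4 proteins for their kinases. The Ccnd1 call was lost without any 1 of 4 libraries, namely replicates 1 and 2 of Myc/NrasG12V and replicates 1 and 3 of Myc/Akt1. Of the INK4-binding kinases themselves, Cdk4 was at 83.3 ± 5.79 against 128 ± 8.25 CPM and higher in Myc/Akt1 (log2 difference -0.61, limma adjusted p = 0.0121). Cdk6, at 7.43 ± 0.766 against 6.59 ± 4.61 CPM, was not called. Among the 7 higher in Myc/Akt1 were the mitotic genes Ccnb2 (3.10 ± 0.330 against 45.0 ± 8.57 CPM), Ccnb1, Cdk1 and Ccna2, whose log2 differences were -3.81 to -3.11. These mitotic genes kept their calls in every alternative fit. The count for Myc/Akt1 was 5 with TMM, median-of-ratios or upper-quartile scaling, in edgeR, and without Myc/Akt1 replicate 1. It was 6 in DESeq2 and without replicate 2 of either group. The calls lost in these fits fell among Cdk4 and the other genes of the 7 that are not mitotic. Which of them lost a call is not reported here, so the Cdk4 call may depend on the scaling.

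RB and E2F genes, which act downstream of the inhibitors, had 6 of 13 called, all higher in Myc/Akt1 (median -0.54). E2f8 (1.03 ± 0.982 against 20.6 ± 7.12 CPM), E2f1 (3.78 ± 0.826 against 14.1 ± 0.942 CPM), the pocket protein gene Rbl1 and the E2F partner Tfdp1 had the lowest adjusted p, and the Tfdp1 call was lost with TMM scaling (-0.75, limma adjusted p = 0.0624). With upper-quartile scaling, or lacking replicate 1 of Myc/NrasG12V or replicate 2 of Myc/Akt1, the count was 3. Genes for the turnover of inhibitor proteins had 10 of 13 tested genes higher in Myc/Akt1 and none higher in Myc/NrasG12V (median -0.88). They include Cdc20, Skp1a, Pcna and Skp2, the ubiquitin ligase subunit that recognises p27, at 3.84 ± 1.16 against 15.7 ± 4.26 CPM (limma adjusted p = 0.0017). With TMM, median-of-ratios or upper-quartile scaling, in edgeR, and without Myc/Akt1 replicate 1, the count was 6.

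Regulators of the Cdkn2a locus differed in both directions. Polycomb proteins are repressors known to silence it, and of 19 tested Polycomb genes 4 were called for each group (median -0.04). Over all tested genes 10.0% were called for Myc/NrasG12V and 29.5% for Myc/Akt1. Ezh2, the histone methyltransferase, was at 8.26, 6.34 and 8.50 CPM in Myc/NrasG12V and 42.4, 35.6 and 25.3 CPM in Myc/Akt1 (log2 difference -2.01, limma adjusted p = 4.9e-04). All 3 Myc/Akt1 libraries were above all 3 Myc/NrasG12V libraries, the reverse of the Cdkn2a order. The groups were likewise apart for 52.7% of all tested genes, and a part of Ezh2 in the Cdkn2a difference was not tested. Bmi1, the best-known Polycomb repressor of Cdkn2a, was at 27.3 ± 4.20 against 48.9 ± 4.71 CPM (SD, n = 3, limma adjusted p = 0.0078), and Suz12 was also higher in Myc/Akt1. Higher in Myc/NrasG12V were Cbx6 (15.9 ± 2.29 against 5.35 ± 0.665 CPM), Phc1, Phc2 and Cbx7. Cbx7 was at 13.6, 9.83 and 40.4 against 5.77, 7.32 and 6.63 CPM (limma adjusted p = 0.0460). Its call was lost with no filter, without Myc/NrasG12V replicate 1 and without any 1 Myc/Akt1 library, leaving a count of 3. With TMM, median-of-ratios or upper-quartile scaling, in edgeR and in DESeq2, the count for Myc/NrasG12V was 5.

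Of 23 genes for transcription factors known to act on the inhibitor genes, 3 were called for each group (median -0.06). The shares over all tested genes were 10.0% for Myc/NrasG12V and 29.5% for Myc/Akt1. Egr1, an immediate early gene, was at 738, 542 and 922 CPM in Myc/NrasG12V and 31.9, 75.3 and 22.0 CPM in Myc/Akt1 (log2 difference 4.21, limma adjusted p = 1.9e-04). Junb, an AP-1 gene whose product can activate Cdkn2a, was at 89.4, 81.5 and 233 CPM against 3.48, 8.07 and 25.0 CPM (log2 difference 3.56, limma adjusted p = 0.0026). Neither overlapped between the groups. Klf6 was the other gene higher in Myc/NrasG12V, and its values overlapped (135, 178 and 217 against 139, 93.5 and 73.1 CPM, limma adjusted p = 0.0394). The Klf6 call was lost with no filter and with the replicate block. It was also lost without replicate 2 or 3 of Myc/NrasG12V or replicate 2 of Myc/Akt1, each time leaving a count of 2. The 3 higher in Myc/Akt1, Ets2, Tbx3 and Cebpa, were not called with TMM, median-of-ratios or upper-quartile scaling, in edgeR or in DESeq2, or without Myc/Akt1 replicate 1 or 2, and 1 of them was called without Myc/Akt1 replicate 3. The FOXO genes Foxo1, Foxo3 and Foxo4, activators of Cdkn1b, and the SMAD genes Smad2, Smad3 and Smad4, activators of Cdkn2b, were not called.

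Genes of the ARF and p53 pathway had 4 of 16 called for Myc/NrasG12V and 2 for Myc/Akt1 (median 0.54). Higher in Myc/NrasG12V were Btg2 (1124 ± 112 against 115 ± 34.3 CPM, SD, n = 3), Phlda3 (29.6 ± 2.77 against 8.92 ± 2.07 CPM), Pmaip1 and Mdm2 (150 ± 43.2 against 72.3 ± 20.8 CPM). Mdm2, the ligase that ARF binds, was called with a log2 difference of 1.04 (limma adjusted p = 0.0188). The Mdm2 call was lost when Myc/Akt1 lacked replicate 2, and also when Myc/NrasG12V lacked replicate 1. In both fits 3 genes of the list stayed called for Myc/NrasG12V. Higher in Myc/Akt1 were Trp53 (43.5 ± 2.29 against 63.1 ± 3.45 CPM) and Perp. With TMM, median-of-ratios or upper-quartile scaling and in edgeR, 8 genes of the list were called for Myc/NrasG12V and none for Myc/Akt1. The count for Myc/Akt1 was 1 in DESeq2 and without replicate 1 or 2 of either group. The Pmaip1 call was lost without Myc/Akt1 replicate 3.

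Genes linked to senescence, the arrested state in which Cdkn2a and Cdkn1a are typically high, went both ways, with 5 of 14 tested called for each group (median 0.09). Cxcl1, a secreted chemokine, was at 95.0 ± 21.7 against 21.0 ± 3.19 CPM (SD, n = 3), and Il1b, Plaur and Igfbp3 were also higher in Myc/NrasG12V. Lmnb1, which is lost in senescent cells, was at 5.58 ± 1.71 against 33.4 ± 9.09 CPM, and Hmgb2, Mmp12, Mmp13 and Ccl2 were also higher in Myc/Akt1. The secreted factors thus fell on both sides of the comparison.

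**Figure D5:**
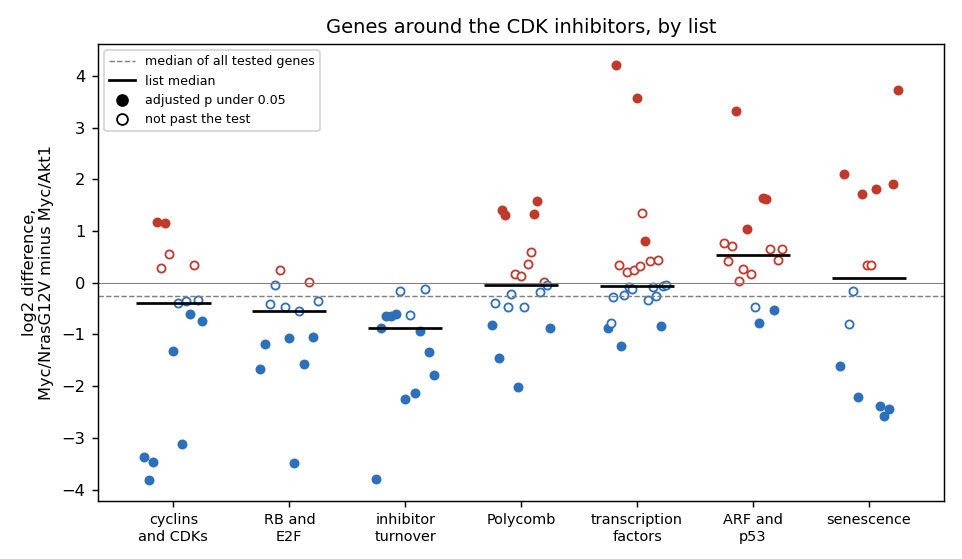
Log2 difference (Myc/NrasG12V minus Myc/Akt1) of each tested gene in 7 lists around the CDK inhibitors, red above 0 and blue below, filled where the adjusted p was under 0.05. Black lines are list medians, from -0.88 for inhibitor turnover to 0.54 for ARF and p53, and the dashed line is the median of all tested genes at -0.26. With TMM scaling that median is 0.0048 and 6 turnover genes are called.

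The genes whose profiles were most like those of the inhibitors were found over the 6 libraries, by the root mean square distance between centred log2(CPM + 1) values, among 10048 tested genes. A distance over 2 separated groups weighs the group difference heavily, and it is given as a description. Closest to Cdkn2a were Mirg (0.17), Neurl1a (0.24) and Bex1 (0.27). Mirg was at 15.3, 12.8 and 13.0 CPM in Myc/NrasG12V and 0.0424, 0.108 and 0.273 CPM in Myc/Akt1, where replicate 3 was again the highest. Closest to Cdkn2b were Fhl3 (0.13), Hid1 (0.14) and Kcp (0.20), and closest to Cdkn2c were Nipsnap1 (0.06), Pnpla8 (0.06) and Zfp706 (0.08). No gene was among the 3 closest of more than 1 inhibitor gene.

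Cdkn1a lay nearest to Naip2, Sox9 and Atp7a (0.19 to 0.20), all low in Myc/Akt1 replicate 3 as Cdkn1a was. Cdkn1b lay nearest to Eif4enif1 (0.02), Tmem127 (0.05) and Tmem128 (0.05), which shared its high value in Myc/NrasG12V replicate 3. Cdkn1c lay nearest to Ciart (0.16), Cyp2a12 (0.20) and Pcsk4 (0.27). Ciart, a circadian repressor gene, was at 9.93, 7.54 and 43.0 CPM in Myc/Akt1. All these genes were picked for likeness over the same libraries, so high or low values shared in a single library follow from that choice. Cdkn2d lay nearest to Col1a1, Myo5a and Eef1e1 (0.09 to 0.10), which were not called.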

How the data were processed

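Poly(A) RNA of 6 liver tumour samples was read in single-end runs of stranded TruSeq libraries, per the labels' protocols. The authors' deposited values are CPM (counts scaled to library size) per gene; STAR 2.6.1c, Subread 1.6.3, edgeR 3.22.5 and build GRCm38 are named in the submitters' processing notes. The release of the annotation, the strandedness used in counting and the treatment of reads with several matches are not given in the sources used here. Dividing by the value of 1 read gave whole reads for 100% of values within 0.01 read. Per the labels' titles, samples fell into 2 groups of 3.

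Values were tested with limma 3.58.1 (R 4.3.3, two-sided, trended eBayes) on log2(CPM + 1), with Benjamini-Hochberg adjustment over the 14365 genes that had at least 0.457 CPM in 3 libraries and 15 reads in all. Single ratios were tested by exact permutation. Alternatives were other scalings, a pseudocount of 0.1, other filters, edgeR 4.0.16 and DESeq2 1.42.0 on the recovered reads, a block for the replicate number, and fits lacking 1 library each. The script was tested on simulated data. Coordinates and exon lengths are from GENCODE M21 (96.0% of listed genes matched), promoters from RefSeq. Cdkn1c had no promoter entry.

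The members and lists were chosen with earlier results of these data known. Named were all members, the 4 genes of lowest adjusted p of each list and called genes going against most of their list, tested genes within 100 kb, and the 3 likest genes. Other list genes (Cdk4, Cdk6, Bmi1, Suz12, Cbx7, Klf6, Cebpa, the FOXO and SMAD genes, Mdm2, Il1b, Plaur, Igfbp3, Mmp13 and Ccl2) were named after their values were seen. Some genes that these rules pick are not reported here.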

Additional observations from a re-analysis of the deposited data

How the results depend on the processing

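The counts of called inhibitor genes stayed within 1.5 times under all 15 alternatives, at 2 or 3 for Myc/NrasG12V and 1 for Myc/Akt1. Cdkn1a became called with TMM (1.08, adjusted p = 0.0462), median-of-ratios (1.08, adjusted p = 0.0481) and upper-quartile scaling (1.13, adjusted p = 0.0369) in limma, and in DESeq2 (0.99, adjusted p = 0.0245). The sign of Cdkn1b turned with TMM (0.17), median-of-ratios (0.18) and upper-quartile scaling (0.23), in edgeR (0.20) and in DESeq2 (0.20), and that of Cdkn1c without Myc/Akt1 replicate 3, with a range of -0.99 to 0.062 over fits lacking 1 library. Leaving out 1 library gave differences of -0.05 to 0.39 for the INK4 to Cip/Kip ratio, turning without Myc/NrasG12V replicate 1 (-0.050) and Myc/Akt1 replicate 2 (-0.052), and of -0.03 to 0.32 for the Cdkn2a to Cdkn2b ratio, turning without Myc/NrasG12V replicate 1 (-0.029) and Myc/Akt1 replicate 1 (-0.031). The causes were not tested.

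Deviations of same-numbered samples correlated at -0.081, 0.113 and 0.085, and those of other pairs at -0.136 to 0.087. With 3 samples per group these values cannot show whether same-numbered samples shared a batch, and the labels name none. With the replicate block 1467 and 4063 genes were called higher and lower, against 1437 and 4240, and no call of an inhibitor gene changed. The block left the 2 ratio differences at 0.16 (exact sign-flip permutation, p = 0.75) and 0.10 (exact sign-flip permutation, p = 1.0), where 3 pairs cannot go below 0.25. Over all genes, the split of calls was 2331 and 2567 with TMM, 2366 and 2515 with median-of-ratios, 2544 and 2345 with upper-quartile scaling, 2381 and 2512 in edgeR, and 2752 and 2791 in DESeq2. Of 37 called neighbours and list genes, 26 were called under every alternative and none turned, an analysis added after seeing the data. Among transcription factors, those higher in Myc/NrasG12V numbered 5 with upper-quartile scaling and in edgeR and 6 in DESeq2. Depth limits Cdkn2a and Cdkn2b in Myc/Akt1, where they had 3 to 15 reads per library.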
